A study of Mus musculus with 48 samples.

Results

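Accessible chromatin was measured by ATAC-seq in transitional (Ttran) CD8 T cells carrying a guide RNA against Zfp219 and taken from B16-OVA melanomas of young hosts. The 3 libraries of this group were set against the 3 Ttran libraries of young hosts that the labels call OTC control, so 6 of the 48 libraries of the series, 2 of its 21 groups, were chosen by their titles, and all 53868 deposited peaks were compared. The cells of both groups were Cas9-expressing OT-1 CD8 T cells, which recognise the ovalbumin peptide that B16-OVA cells present. They were CD45.1+, received a guide RNA from a lentivirus that also encoded the fluorescent protein ametrine, and were transferred 1 day before the melanoma cells were inoculated. Tumours were taken on day 15, and CD45.1+ ametrine+ cells were sorted by 2 surface proteins: the Ttran gate held Slamf6+ Tim-3+ cells. Each library came from 5000 to 50000 cells of a pool of independent mice, sequenced from both ends with 50 base reads. The labels name the first group Zfp219KO and give no guide sequence, no measure of protein loss and no meaning for the letters OTC, and the young or aged host is read from the letters Y and A in the titles. Sorted cells with a guide can be edited or unedited, and fewer cells with an open site and less signal per cell cannot be told apart.

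Zfp219 encodes a nuclear protein with C2H2 zinc fingers, the fold by which many transcription factors recognise DNA. In tumours and chronic infection, CD8 T cells that meet antigen for long pass from progenitor-like cells, which keep Slamf6 and the transcription factor encoded by Tcf7, through transitional cells that hold both Slamf6 and Tim-3, to terminal cells that have lost Slamf6. ATAC-seq inserts adapters into open DNA, so a peak marks a promoter, enhancer or other site where nucleosomes are displaced, and its read count follows how often the site is open.

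The Zfp219 libraries held 6589023, 7606132 and 7952298 reads in peaks and the OTC libraries 29942755, 17002746 and 12629361, so every Zfp219 library was shallower than every OTC library and depth and guide cannot be told apart in the full counts. For this reason the main count and several others below are also given after all libraries were thinned to 5638413 reads. The share of reads in promoter peaks was 37.9% to 38.5% with the Zfp219 guide and 37% to 38% with OTC. Replicates correlated at 0.932 to 0.938 within the Zfp219 group and at 0.962 to 0.973 within the OTC group. The 2 gate genes checked the labelled state. The peak of Havcr2, which encodes Tim-3, averaged 1197 ± 43.4 normalized reads (SD, n = 3) with the Zfp219 guide and 1233 ± 42.3 (SD, n = 3) in OTC Ttran, against 672 in OTC Tprog. The Slamf6 promoter stood at 350, 302 and 329 with the Zfp219 guide and at 259, 207 and 254 in OTC Ttran, a log2 difference of 0.45 that missed the threshold (limma adjusted p = 0.051). The 1 called peak near Slamf6 (chr1:171915612-171916427) went the other way, from 302, 294 and 338 with OTC to 253, 201 and 226 (-0.46, limma adjusted p = 0.0118). Of the peaks at the 7 CD8 T cell marker genes that had one, 0 were called higher and 4 of 52 lower, and their summed signal ran from 22888 to 23023 normalized reads with the Zfp219 guide and from 24129 to 24418 with OTC. No peak lay at the B cell genes, and the melanoma genes Dct and Tyr and the regulatory T cell gene Foxp3 had none either. The melanoma genes that had peaks, 4 of 6, summed to 1193 to 1291 with the guide and 1355 to 1402 with OTC. The NK list summed to 2595 to 2652 against 2337 to 2491, and its part in the results below was not tested. The 2 peaks at Cd4 summed to 292 to 322 against 410 to 439, and 1 of them was called lower.

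With the Zfp219 guide, far more sites lost accessibility than gained it. By limma at an adjusted p under 0.05, 2277 peaks (4.23%) were lower than in OTC and 890 (1.65%) were higher, 3167 (5.88%) in all. Most differences were small: the median log2 difference was -0.43 among the lower and 0.49 among the higher peaks, and 609 peaks (1.13%) passed the test with at least a 2-fold difference, 450 lower and 159 higher. Among all peaks, 10510 (19.5%) had 3 Zfp219 values wholly above or below the 3 OTC values, and 2815 (5.23%) were also called. The excess of losses held after thinning, with 454 higher and 1268 lower, and in a fit of the 6 libraries alone, with 180 higher and 712 lower. edgeR on the recovered whole reads called 731 higher and 2469 lower. With the libraries forced to 1 distribution (quantile normalization) the split was 924 higher and 1546 lower, so the share of calls that were lower moved from 71.9% to 62.6%. Leaving out OTC replicate 3 or replicate 2 left 1863 or 1934 calls in all.

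The targeted gene itself showed no called change, which does not bear on whether the guide cut, since a cut leaves the promoter in place. Its promoter peak (chr14:52019226-52020740, mm10, which also overlaps Tmem253) held 1034, 1013 and 1100 normalized reads with the Zfp219 guide and 1020, 1112 and 1056 with OTC, a log2 difference of -0.02 with a standard error of 0.07 (limma adjusted p = 0.922). The groups overlapped there, as they did at the other 2 peaks of Zfp219, whose log2 differences were 0.42 and 0.18 (limma adjusted p = 0.181 and 0.346).

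Several genes carried more than 1 loss. Among 2301 genes with a called peak, 437 had at least 2, and all of them were lower at 306 genes, higher at 37 and mixed at 94. Vgll4, whose protein binds TEAD transcription factors and opposes YAP, had 9 of its 16 peaks called, all lower. At the peak chr6:114936071-114937126 the OTC libraries held 508, 509 and 545 normalized reads and the Zfp219 libraries 249, 281 and 231. The groups lay far apart, with a log2 difference of -1.04 ± 0.12 (SE, limma adjusted p = 2.58e-10), and 8 of the 9 calls remained in the fit of the 6 libraries alone. Rora, which encodes a nuclear receptor that acts as a transcription factor in lymphocytes, had 9 lower peaks and 1 higher among 30. The strongest of its falls by test (chr9:69339781-69341024) went from 588, 669 and 587 to 356, 419 and 403, a log2 difference of -0.65 (limma adjusted p = 4.75e-07). Sik1, a salt-inducible kinase of the AMPK family, had 7 lower peaks among the 25 assigned to it. The called peak closest to the gene, chr17:31840268-31842551, held 1409, 1365 and 1331 in OTC and 977, 977 and 1026 with the Zfp219 guide, without overlap (log2 difference -0.46, limma adjusted p = 1.24e-07). Zmiz1, a co-regulator of Notch and androgen receptor target genes, had 8 lower of 37, and Stk10, a kinase abundant in lymphocytes, had 7 lower of 12, but only 1 and 2 of these calls held in the 6 libraries alone. Prex1, an exchange factor for the GTPase Rac, had 6 lower peaks in its body and 1 higher peak at its promoter.

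Fewer genes gained at several sites. Tox, the transcription factor that sets up the chromatin of exhausted T cells, had 5 of 27 peaks called, all higher and all inside the gene. At chr4:6833655-6834908 the 3 OTC libraries held 98.02, 94.6 and 102 normalized reads and the 3 Zfp219 libraries 182, 187 and 177. These values did not overlap, and the log2 difference was 0.88 ± 0.19 (SE, limma adjusted p = 0.00108). The libraries with a Dusp5 guide averaged 156 at this Tox peak, 0.65 above the same OTC libraries on the log2 scale, which missed the threshold (limma adjusted p = 0.0878). At 3 of the other 4 called Tox peaks the Dusp5 libraries were called higher than OTC too, by 0.93, 0.56 and 0.55 (limma adjusted p = 0.0487, 0.0166 and 0.0487), and there the Zfp219 libraries differed from the Dusp5 libraries by -0.13, -0.09 and 0.11, none of which passed the test. Of the 5 Tox calls, 2 held in the 6 libraries alone and 3 after thinning. The gene model Gm40363 had 7 of 8 peaks higher, for example 1421, 1538 and 1701 with OTC against 2181, 2270 and 2085 with the Zfp219 guide at chr6:47752594-47754120 (log2 difference 0.49, limma adjusted p = 2.58e-10). All 7 were called under both the fit of 6 libraries and thinning, and in aged hosts they were higher with the guide by 0.71 to 0.86 on the log2 scale. Of these peaks 6 lie close together outside the gene, and whether they share reads as near-identical copies was not tested.

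**Figure D1:**
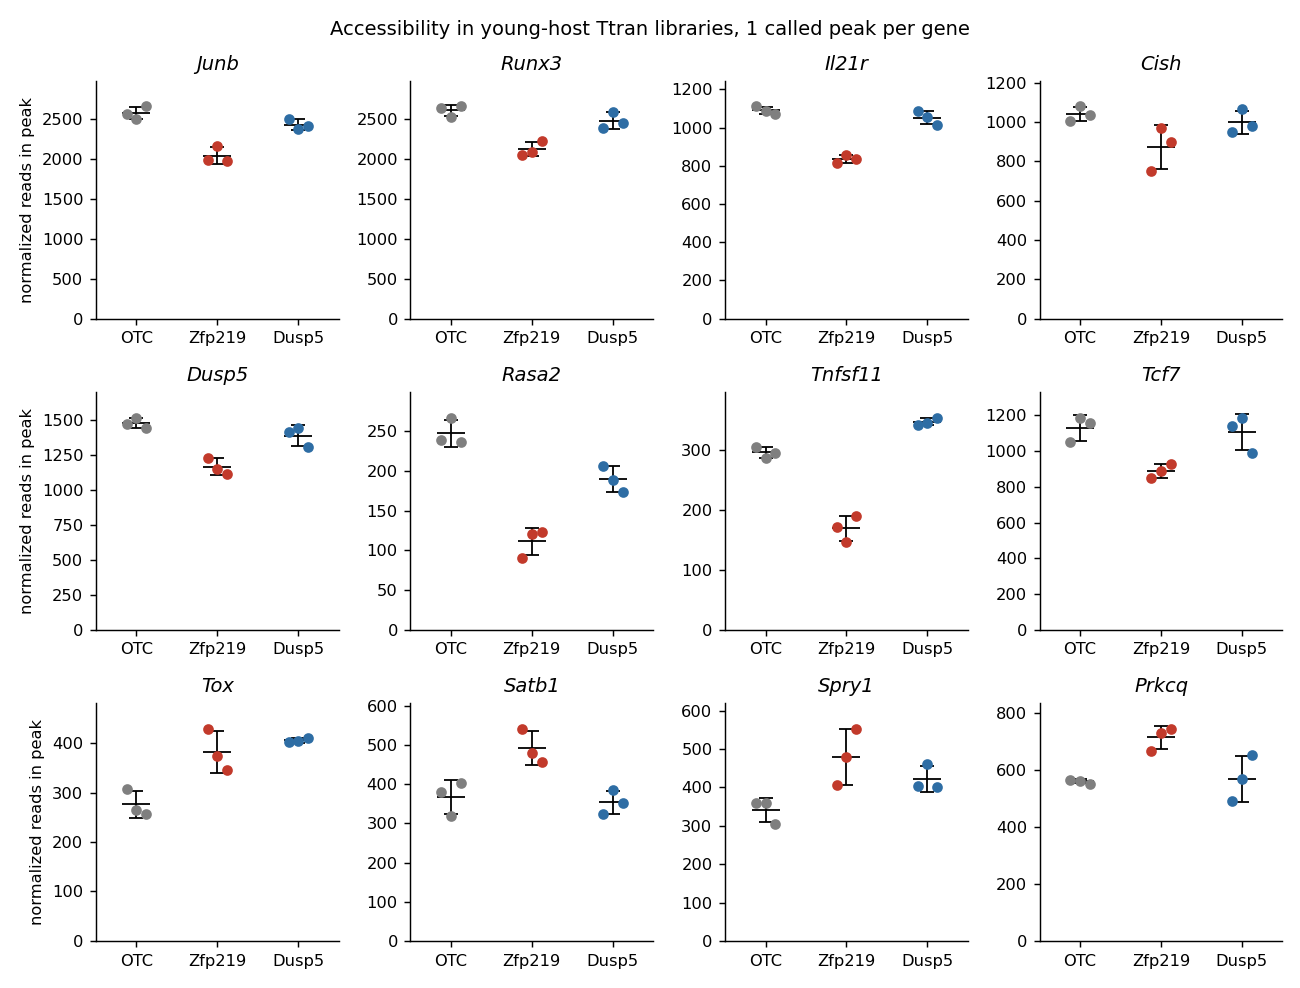
Normalized reads (y axis) in 1 called peak of each of 12 genes, the peak of largest mean among those called, in the 3 OTC, 3 Zfp219 and 3 Dusp5 libraries of young-host Ttran. Points are libraries, the long bar is the mean and the error bar the SD; the Zfp219 points lie below OTC for Junb to Tcf7 and above OTC for Tox to Prkcq.

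The largest single changes were at weak peaks. Among peaks that averaged at least 50 normalized reads and did not overlap between the groups, the 10 largest falls ran from -1.91 to -1.28 and the 10 largest rises from 1.22 to 2.09 on the log2 scale. Rgs8, a regulator of G protein signalling, had the largest fall at its promoter, from 102, 100.1 and 105 with OTC to 21.8, 17.2 and 49.1 (-1.91 ± 0.35, SE, limma adjusted p = 0.000106). The Dusp5 libraries, at 39.2 on average, were called lower than the same OTC libraries at Rgs8 as well (-1.57, limma adjusted p = 0.0103), and Zfp219 and Dusp5 differed by -0.34 there without passing the test (limma adjusted p = 0.633). A site just outside Stat5a, which encodes a transcription factor downstream of interleukin-2, fell from 189, 209 and 238 to 96.9, 58.4 and 110 (-1.30 ± 0.18, SE, limma adjusted p = 1.43e-07). Neither site had overlapping groups, and both calls held under each of the 18 alternatives. Ifitm2, an interferon-induced membrane protein, fell at its promoter from 212, 189 and 227 to 89.0, 91.0 and 110 (-1.11, limma adjusted p = 5.4e-07), with the Dusp5 libraries at 219 on average. In the other direction, a peak inside Stard13, which encodes a GTPase-activating protein, rose from 30.5, 17.2 and 11.6 to 65.3, 91.0 and 89.99 (2.09 ± 0.34, SE, limma adjusted p = 6.51e-06). The promoter of Rnf32, a RING finger gene, rose from 31.4, 40.7 and 23.2 to 140.4, 91.0 and 47.5 (1.42, limma adjusted p = 0.000107). All 3 Zfp219 values exceeded the OTC values at both sites, though the 3 Rnf32 values spread widely. Both sites were also called higher with the Dusp5 guide against the same OTC libraries, Stard13 by 1.72 (limma adjusted p = 0.00158) and Rnf32 by 1.11 (limma adjusted p = 0.0186). Other rises were at Smoc1, Fam117a, Dgkg, Lamp1, Cdk19, Rbbp6 and Cdc42bpa and the other falls at Col16a1, Ccdc136, Insig2, Cox17, Fcrl5, Syt11, P4ha2 and Tg, genes given only as the nearest or overlapping one. After thinning, 10 of the 10 falls but 5 of the 10 rises were still called.

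Genes of T cell identity and signalling were described in 11 lists. Of their 154 genes 152 had a peak, and of these 1385 peaks 113 (8.16%) were lower and 16 (1.16%) higher, beside 4.23% and 1.65% of all peaks. The list peaks were stronger than most, with a median of 174 normalized reads beside 94.6 over all peaks, and the share of peaks called lower was 3.95% in the second highest of 5 equal bins of all peaks by signal and 11.1% in the highest. By gene, 61 had only lower calls, 6 only higher and 5 both. The median log2 difference was -0.07 over the list peaks and -0.01 over all peaks. In the fit of the 6 libraries alone the lists held 32 lower and 3 higher calls, and after thinning 57 lower and 11 higher. Each list had more lower than higher calls in the full fit, and the exhaustion list had 2 higher and 1 lower in the 6 libraries alone. The inhibitory receptor list and the cytotoxic and cytokine list had 0 calls in either direction in the 6 libraries alone.

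Receptors for cytokines were among the losses. In the cytokine receptor list, 13 of 136 peaks (9.56%) were lower and 2 higher, with a median of -0.06. Il21r, the interleukin-21 receptor, had 4 lower peaks of 8, including its promoter (chr7:125602882-125604061), which held 1111, 1089 and 1074 normalized reads with OTC and 813, 855 and 838 with the Zfp219 guide. The 2 groups stood clear of each other, with a log2 difference of -0.39 (limma adjusted p = 6.24e-05). Il2rb, the signalling chain shared by the receptors of interleukin-2 and interleukin-15, was lower at 3 of its 5 peaks, the strongest going from 3140, 2935 and 3142 to 2547, 2586 and 2593 (-0.25, limma adjusted p = 8.05e-05). At Il4ra 2 of 7 peaks fell, both by 0.36 on the log2 scale, and Tgfbr2 and Ifngr2 also had only lower calls. Il12rb2 had 1 peak called each way, and the 1 call at Il18r1 was higher.

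In the TNF superfamily list 11 of 76 peaks (14.5%) were lower and 1 higher, with a median of -0.17. This share was the highest of the 11 lists here but not in the 6 libraries alone, where 3 of its 76 peaks and 6 of the 136 cytokine receptor peaks were lower. Tnfsf11, which encodes the ligand RANKL, fell at 3 of 15 peaks. At chr14:78329593-78331107 the OTC libraries held 306, 288 and 297 and the Zfp219 libraries 172, 148 and 190, and the Dusp5 libraries averaged 348. The Zfp219 values lay below all the others, with a log2 difference from OTC of -0.81 (limma adjusted p = 1.1e-06). The receptors Tnfrsf1b (-0.30), Tnfrsf18 (-0.28) and Tnfrsf9 (-0.22), the last 2 being costimulatory GITR and 4-1BB, were lower at their strongest called peak, and Tnfsf8 had 1 call each way. In the homing list, where 7 of 112 peaks were lower and 0 higher, the promoter of the chemokine receptor gene Cxcr3 fell from 459, 412 and 441 to 324, 276 and 283 (-0.57, limma adjusted p = 0.00135).

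T cell receptor signalling genes and the genes that restrain signalling had more lower than higher peaks, with exceptions at Prkcq, Spry1 and Ptpn2. Of 165 peaks of signalling genes 10 (6.06%) were lower and 1 higher. Cd247, the zeta chain of the receptor complex, fell from 1542, 1477 and 1530 to 1165, 1186 and 1247 at its strongest called peak (-0.34, limma adjusted p = 0.000152). The higher peak was the promoter of Prkcq, the gene of protein kinase C theta, which rose from 567, 564 and 553 to 668, 733 and 746 (0.35, limma adjusted p = 0.00994). Of 180 peaks at genes that restrain signalling 18 (10%) were lower and 2 higher. Cish, a suppressor of cytokine signalling, fell at 4 of its 6 peaks, most at chr9:107308981-107309806, from 640, 758 and 624 to 352, 412 and 403 (-0.79, limma adjusted p = 6.6e-09). A peak near Rasa2, which encodes a GTPase-activating protein for Ras, held 239, 267 and 237 with OTC and 91.0, 120.1 and 123 with the guide (-1.16, limma adjusted p = 2.06e-06). Neither site had overlapping values. Of the 6 MAP kinase phosphatase genes in the list 3 had calls: Dusp5 was lower at 5 of 17 peaks, Dusp4 at 2 of 10 and Dusp2 at its promoter (-0.25, limma adjusted p = 3.66e-06), while Dusp1, Dusp6 and Dusp10 had 0 called peaks of 6, 4 and 10. Spry1, a Sprouty inhibitor of Ras signalling, went the other way at its promoter, from 360, 360 and 305 to 407, 479 and 553 (0.48, limma adjusted p = 0.0015), and Ptpn2, a phosphatase that acts on JAK and STAT proteins, rose at 1 of 9 peaks.

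At transcription factor genes of progenitor, effector and exhausted cells most peaks were not called, and lower calls outnumbered higher ones. In the AP-1 list 7 of 69 peaks (10.1%) were lower and 0 higher, with a median of -0.17. The promoter of Junb (chr8:84978251-84980361) went from 2567, 2505 and 2658 normalized reads to 1983, 2166 and 1973, a log2 difference of -0.34 (limma adjusted p = 4.96e-07). Runx3, a factor that establishes the cytotoxic program, was lower at 6 of 23 peaks, and its promoter (chr4:135118721-135121521) went from 2642, 2525 and 2655 to 2051, 2085 and 2217 (-0.30, limma adjusted p = 1.11e-05). Neither promoter had overlapping groups, and the Dusp5 libraries averaged 2430 at Junb and 2476 at Runx3. A site near Tcf7, the gene of the progenitor factor TCF-1, fell from 1050, 1187 and 1155 to 850, 887 and 929 (-0.35, limma adjusted p = 0.000599), beside a mean of 856 in OTC Tterm cells. Bach2 had 4 lower peaks and Foxo1 2, while Satb1, a chromatin organiser, had 2 higher, 1 of them at its promoter. In the exhaustion list 13 of 166 peaks were lower and 6 higher; 5 of the 6 were those at Tox. The inhibitory receptor list had 6 of 82 lower and 0 higher, with 1 peak each at Pdcd1 (-0.23), Lag3 (-0.28) and Tigit (-0.24) and 3 at Ctla4. The effector list had 10 of 116 lower and 1 higher, the promoter of Zeb2, and the stem-like list 11 of 172 lower and 3 higher. Among cytotoxic and cytokine genes 7 of 119 peaks were lower and 0 higher, at Prf1, Fasl, Tnf and Xcl1, and 0 of the 9 peaks at Gzmb and 0 of the 27 at Ifng were called. After thinning 0 of these 119 peaks were called in either direction, and likewise 0 in the 6 libraries alone.

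**Figure D2:**
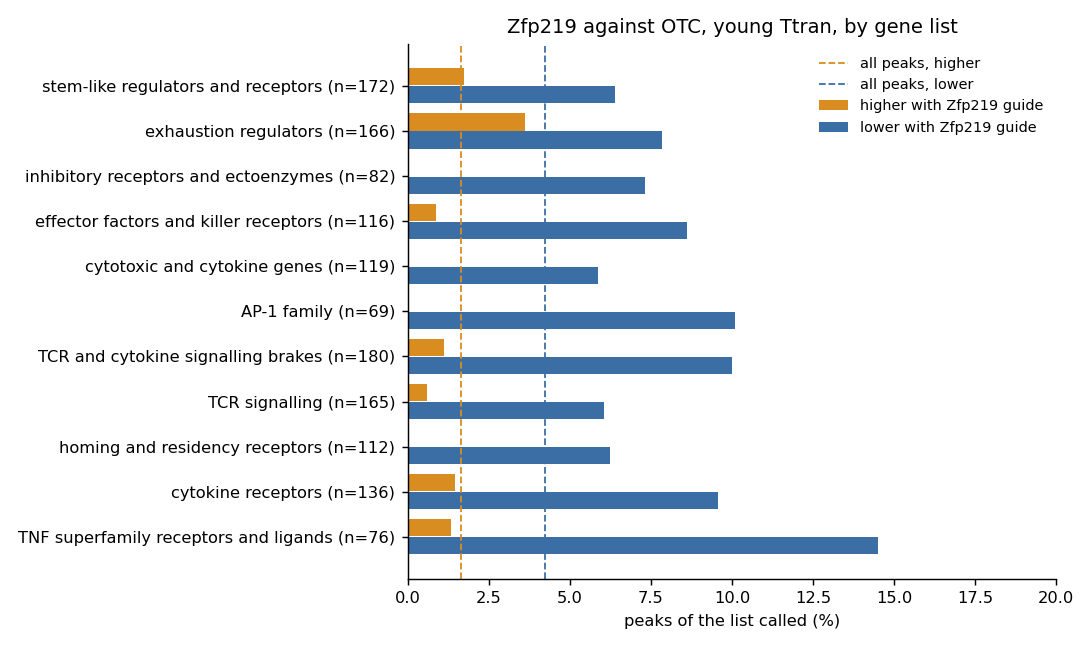
Percent of each list's peaks (x axis) called higher or lower with the Zfp219 guide than with OTC in young-host Ttran, by gene list (y axis, number of peaks in brackets); dashed lines mark the same shares over all 53868 peaks, 1.65% and 4.23%. The share called lower exceeds 4.23% in every list and is highest, 14.5%, for the TNF superfamily.

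Promoter peaks were also described apart from other sites. A peak was counted as a promoter peak where it overlapped the window from 250 bases before to 50 after the start of a protein-coding gene. Of 9253 promoter peaks, 315 (3.40%) were higher and 357 (3.86%) lower, whereas of 44615 peaks elsewhere 575 (1.29%) were higher and 1920 (4.30%) lower. Losses outside promoters were concentrated in strong peaks: in the highest of the 5 bins by signal, 15.5% of peaks outside promoters and 5.94% of promoter peaks were lower. That bin held 65.5% to 65.7% of the reads in peaks of the Zfp219 libraries and 66.5% to 66.9% of the OTC libraries, without overlap. Of its peaks outside promoters 899 were lower in the full fit, 572 after thinning and 523 under quantile normalization. The part of this difference in reads in the losses was not tested. The balance at promoters depended on scaling, with 392 higher and 171 lower under quantile normalization and 224 higher and 466 lower by edgeR.

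Falling promoters were rich in the CCAAT box, the pentamer bound by the trimeric factor NF-Y. In the 250 bases before the gene start, on either strand, CCAAT occurred in 59.4% of the 429 windows in falling peaks, 28.9% of the 418 in rising peaks, 36.0% of the 11455 in any promoter peak and 35.4% of all 21237 windows. The ETS motif CCGGAAG showed the opposite order, 7.93% of falling, 16.7% of rising and 15% of all windows in peaks. The RUNX motif TGTGGT was in 14.5%, 8.61% and 10.4%, and the GC box GGGCGG in 65.7%, 57.7% and 62.5%. Other letters searched were AP-1 (TGANTCA, 4.43% of falling and 2.87% of rising windows), CRE (TGACGTCA, 1.40% and 3.11%), STAT (TTCNNNGAA, 3.96% and 6.22%) and the core promoter box TATAAA (3.50% and 6.46%). A match is a description of the letters, binding was not measured, and matches of different motifs can overlap. The median GC content was 61.2% in falling, 60.4% in rising and 61.2% in all these windows. The windows of 4 falling promoters with a match and of 3 rising ones, 1 with and 2 without, all of them peaks with no overlap between the groups, are given as examples. They run from base 250 to base 1 before the start on the gene's strand, from RefSeq on GRCm38.p6, with CCAAT on either strand in capitals, and were picked after their values were seen. Sp1 is at chr15:102406066-102406315 (plus strand), Hsp90b1 at chr10:86705445-86705694 (minus strand), Runx3 at chr4:135120395-135120644 (plus strand), Junb at chr8:84978749-84978998 (minus strand), Spry1 at chr3:37639697-37639946 (plus strand), Rnf32 at chr5:29195743-29195992 (plus strand) and Rpl5 at chr5:107900278-107900527 (plus strand).
Sp1: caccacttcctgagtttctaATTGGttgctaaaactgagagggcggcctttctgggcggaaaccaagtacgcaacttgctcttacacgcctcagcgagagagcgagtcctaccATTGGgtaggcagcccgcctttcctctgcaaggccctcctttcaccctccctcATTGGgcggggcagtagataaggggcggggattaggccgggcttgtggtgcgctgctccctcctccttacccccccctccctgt
Hsp90b1: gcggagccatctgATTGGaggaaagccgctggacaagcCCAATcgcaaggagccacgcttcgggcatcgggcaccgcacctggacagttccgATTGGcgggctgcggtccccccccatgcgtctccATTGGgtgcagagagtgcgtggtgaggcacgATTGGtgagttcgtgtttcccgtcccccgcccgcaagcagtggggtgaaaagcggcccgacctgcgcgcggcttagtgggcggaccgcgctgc
Runx3: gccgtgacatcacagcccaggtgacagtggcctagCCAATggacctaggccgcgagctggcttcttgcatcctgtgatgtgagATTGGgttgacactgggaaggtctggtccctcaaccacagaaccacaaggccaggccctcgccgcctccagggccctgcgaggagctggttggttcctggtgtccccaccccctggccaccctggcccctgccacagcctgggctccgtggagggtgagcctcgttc
Junb: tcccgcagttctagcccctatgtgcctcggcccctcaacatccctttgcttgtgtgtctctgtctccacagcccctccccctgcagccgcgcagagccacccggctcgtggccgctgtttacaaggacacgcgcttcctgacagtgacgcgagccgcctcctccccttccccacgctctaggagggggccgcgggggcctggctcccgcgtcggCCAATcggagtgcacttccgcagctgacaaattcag
Spry1: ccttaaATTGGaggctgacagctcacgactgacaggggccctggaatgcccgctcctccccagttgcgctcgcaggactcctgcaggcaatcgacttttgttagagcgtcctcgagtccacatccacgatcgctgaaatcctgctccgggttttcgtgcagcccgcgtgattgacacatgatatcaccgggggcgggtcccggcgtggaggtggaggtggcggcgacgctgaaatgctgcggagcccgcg
Rnf32: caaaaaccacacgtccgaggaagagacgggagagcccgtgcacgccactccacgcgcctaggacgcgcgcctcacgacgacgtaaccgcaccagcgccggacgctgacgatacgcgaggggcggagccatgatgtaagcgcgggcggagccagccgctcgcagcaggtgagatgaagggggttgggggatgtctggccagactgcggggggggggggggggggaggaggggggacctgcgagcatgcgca
Rpl5: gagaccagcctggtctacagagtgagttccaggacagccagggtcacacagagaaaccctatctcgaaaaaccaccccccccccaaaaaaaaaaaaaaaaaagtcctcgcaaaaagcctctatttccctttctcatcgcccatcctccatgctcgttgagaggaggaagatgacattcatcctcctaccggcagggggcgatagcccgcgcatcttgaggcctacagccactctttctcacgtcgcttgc
Sp1 has 3 matches, Hsp90b1 5, Runx3 2 and Junb 1, and of the rising promoters Spry1 has 1 and Rnf32 and Rpl5 have 0. Of the windows in falling peaks with a match, 255 in all, the nearest match lay a median of 60 bases before the start, beside 71 bases in all windows with one.

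The share of losses rose with the number of boxes. Among promoter peaks with no CCAAT, 130 of 5603 (2.32%) were lower and 210 (3.75%) higher. With 1 box 66 of 2189 (3.02%) were lower and 72 higher, and with at least 2 boxes 159 of 1394 (11.4%) were lower and 33 (2.37%) higher. The shift of the whole group was slight, a median log2 difference of -0.04 with at least 2 boxes and 0.05 with none. Promoters with at least 2 boxes were also stronger than those with none, with medians of 690 and 391 normalized reads. Within the highest of the 5 bins by signal the shares called lower were 14.9% of 1023 and 3.53% of 2722, and the medians there still differed, at 870 and 651, so the part of signal strength was not tested. Between at least 2 boxes and none the order held in the 6 libraries alone (77 of 1394 lower against 39 of 5603) and after thinning (107 against 69). It held also by edgeR (192 against 180) and under quantile normalization (58 against 72, with 51 and 260 higher). In the 6 libraries alone 15 of the 2189 promoters with 1 box were lower, no larger a share than with none. The Ttran libraries of aged hosts are separate, 2 per guide. There 172 of the 1394 and 159 of the 5603 were lower with the Zfp219 guide, and 78 and 784 were higher. With the Dusp5 guide, set against the same young OTC libraries, 9 of the 1394 and 15 of the 5603 were lower. Set directly against the Dusp5 libraries, the Zfp219 libraries were lower at 84 of the 1394 and 128 of the 5603, and higher at 37 and 314. The medians of the other young states showed no such order with the Zfp219 guide. They were -0.05 with at least 2 boxes and -0.04 with none in Tprog, and -0.02 and -0.04 in Tterm.

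**Figure D3:**
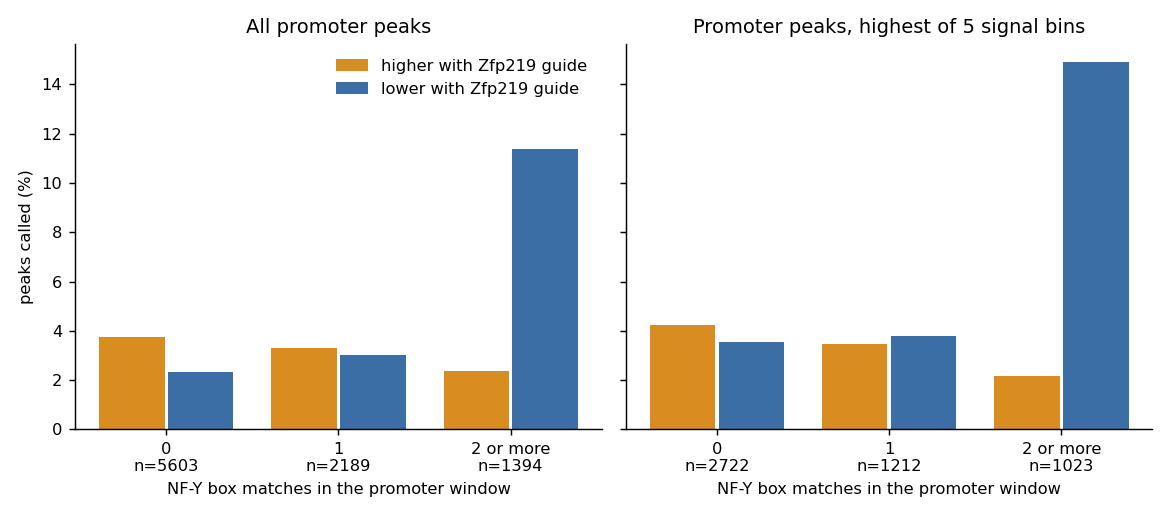
Percent of promoter peaks (y axis) called higher or lower with the Zfp219 guide than with OTC in young-host Ttran, by the number of NF-Y (CCAAT) boxes in the 250 bases before the gene start (x axis, with the number of peaks), for all promoter peaks and for those in the highest of 5 equal bins of peaks by signal. The share called lower rises from 2.32% with no box to 11.4% with at least 2, and from 3.53% to 14.9% in that bin.

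Named promoter families, grouped after their values were seen, gave the size of these changes. Sp1, which encodes the GC box factor, went from 4137, 4130 and 4174 normalized reads with OTC to 3366, 3322 and 3016 with the Zfp219 guide, a log2 difference of -0.36 ± 0.04 (SE, limma adjusted p = 4.51e-09). Its relatives Sp2 (-0.24) and Sp4 (-0.18) were also called lower, and Sp3 was at 0.04 and not called. A set of 21 promoters held endoplasmic reticulum chaperone and stress genes, most of which fold secreted proteins or answer to misfolded ones. Of these 9 (42.9%) were lower and 0 higher, with a median of -0.18. Beside this, 3.86% of all promoter peaks and 5.94% of those in the highest of the 5 bins by signal were lower. Hsp90b1, the chaperone GRP94, went from 2506, 2617 and 2580 to 2150, 2102 and 2351 (-0.22, limma adjusted p = 0.00237) without overlap. Calreticulin (Calr) fell by 0.22 with overlapping groups, at 1572, 1444 and 1647 against 1501, 1254 and 1262. The others lower were Dnajb11, Pdia4, Selenos, Creld2, Edem3, Eif2ak3 and Sec31a, the last a vesicle coat gene that falls outside that description. Among those not called were Hspa5 (-0.05), Xbp1 (-0.03) and Canx (-0.02). These 9 calls became 6 in the libraries alone, 5 after thinning and 2 under quantile normalization.

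The losses and gains at promoters followed the course from progenitor to terminal cells. Peaks were classed by the OTC libraries of young Tprog (Slamf6+ Tim-3-) and Tterm (Slamf6- Tim-3+) cells. These libraries do not enter the Ttran means, but the full fit shares 1 estimate of the spread per peak between both comparisons. Classing and calling are therefore not independent in that fit. By this classing 7512 peaks (13.9%) were higher in Tprog and 6767 (12.6%) higher in Tterm. Of the 747 promoter peaks higher in Tprog, 152 (20.3%) were lower with the Zfp219 guide in Ttran and 5 (0.669%) higher, with a median of -0.12. Of the 1510 promoter peaks higher in Tterm, 123 (8.15%) were higher and 15 (0.993%) lower, with a median of 0.10. The promoters called in neither direction stood between, with 187 higher and 190 lower of 6996. Outside promoters the Tprog class was also the one with most losses, 561 of 6765 (8.29%), but the Tterm class had 262 of 5257 lower and 132 higher, so no reversal appeared there. The promoter pattern kept its order in the 6 libraries alone (Tprog class 0 higher and 75 lower, Tterm class 22 and 5), after thinning (3 and 93, 66 and 5), under quantile normalization (15 and 68, 161 and 9) and by edgeR (4 and 185, 92 and 25). Boxes and course overlapped without being the same: of Tprog-class promoters 112 of 414 with a CCAAT box (27.1%) and 40 of 322 without (12.4%) were lower, and of the promoters in neither class 110 of 2766 with a box and 78 of 4185 without. Tterm-class promoters showed no such order, with 3 of 403 with a box (0.744%) and 12 of 1096 without (1.09%) lower.

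A score over 3751 Tprog-class and 2187 Tterm-class peaks that differed at least 2-fold put each library on this course. It is the mean log2 value of the first set minus that of the second. The Zfp219 Ttran libraries scored -0.923, -0.917 and -0.887 (mean -0.909 ± 0.0194, SD, n = 3) and the OTC Ttran libraries -0.796, -0.834 and -0.809 (mean -0.813 ± 0.0190, SD, n = 3). All 3 Zfp219 libraries lay on the Tterm side of all 3 OTC libraries, a difference of -0.0962, and the exact permutation test, two-sided, gave p = 0.1, the smallest that 20 arrangements allow. The Dusp5 Ttran libraries scored -0.835, -0.779 and -0.778, 1 beyond the OTC range on the Tterm side and the others beyond it on the Tprog side. The difference between Zfp219 and OTC Ttran moved to -0.0386 under quantile normalization and to -0.067 after thinning. In young Tterm the Zfp219 libraries lay on the Tprog side of OTC, at -1.38, -1.365 and -1.376 beside -1.658, -1.69 and -1.632. In young Tprog they lay on the Tterm side, at 1.392 and 1.432 beside 1.709 and 1.808. The OTC libraries of these states chose the peaks, so their scores are extreme in part by choice.

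**Figure D4:**
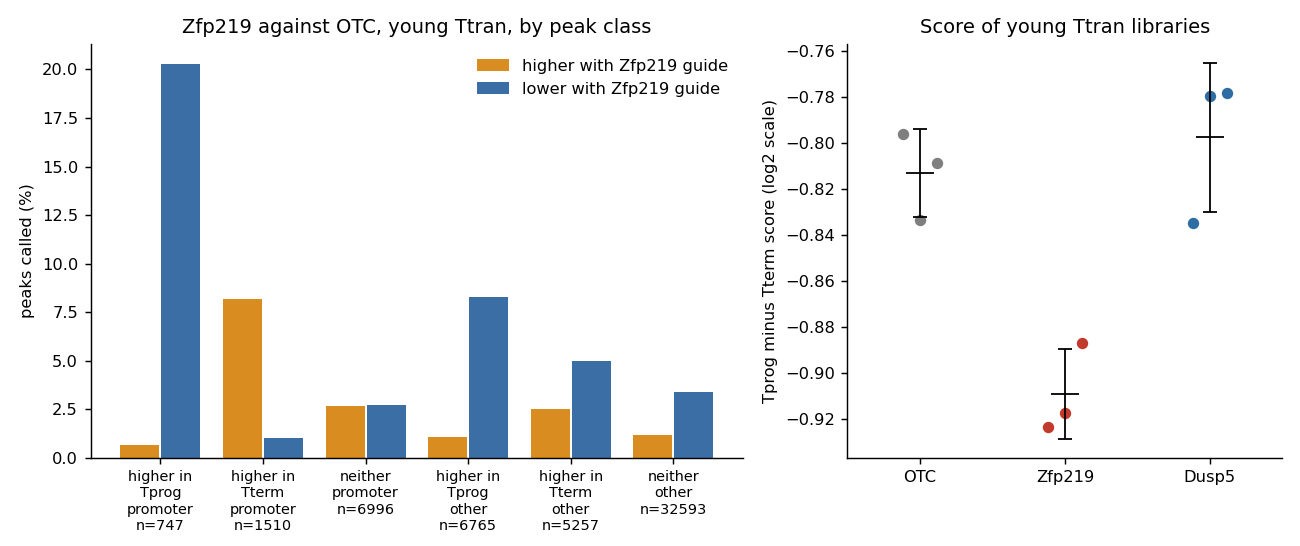
Left, percent of peaks (y axis) called higher or lower with the Zfp219 guide than with OTC in young-host Ttran, by class of the peak between OTC Tprog and Tterm cells and by position (x axis, with the number of peaks). Right, the Tprog minus Tterm score (log2 scale, y axis) of each young-host Ttran library, with the mean and SD of each guide; all 3 Zfp219 libraries lie below all 3 OTC libraries.

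The same guide was also tested in other cells of the series, with their own OTC libraries. Aged Ttran and young Tprog had 2 libraries per guide and young Tterm 3. In aged Ttran the Zfp219 libraries were deeper, at 12793436 and 16034483 reads in peaks against 8547780 and 9060635. Their promoter share was 39.9% to 40.3% against 37.2% to 37.5%, and the part of either was not tested. Column names number aged and young libraries in separate series, so handling and age may not be separable. With the Zfp219 guide 537 peaks (0.997%) were called in young Tprog, 137 higher (0.254%) and 400 lower (0.743%). In young Tterm 148 (0.275%) were called, 43 higher (0.0798%) and 105 lower (0.195%), and in aged Ttran 7656 (14.2%), 3188 higher (5.92%) and 4468 lower (8.29%). Of the 2277 peaks lower in young Ttran, the fitted difference was below 0 for 77.3% in young Tprog, 76.9% in young Tterm and 85.5% in aged Ttran, beside 50.8%, 49.1% and 49.7% of all peaks, and 997 of them were called lower in aged Ttran. Of the 890 higher peaks 63.6%, 62.4% and 74.8% were above 0 in the same cells, and 206 were called higher in aged Ttran. These are separate libraries that share the fit's estimate of the spread per peak. Whether the states of 1 guide were sorted from the same mice is not stated. Whether the effect itself differed was tested directly: 305 peaks (0.566%) differed between young Ttran and the mean of young Tprog and Tterm, 110 (0.204%) upward and 195 (0.362%) downward, and 1975 (3.67%) differed between young and aged Ttran, 1207 (2.24%) with a higher and 768 (1.43%) with a lower value in the young. The 305 became 190, 158 or 168 without OTC Ttran replicate 1, 2 or 3 and 553 without Zfp219 Ttran replicate 3, and the 1975 became 905 or 970 without aged Zfp219 replicate 1 or 2. Vgll4 and Stat5a were lower in both ages, the former at -1.04 and -0.41 on the log2 scale in young and aged Ttran at chr6:114936071-114937126 and the latter at -1.30 and -0.98. Ifitm2 was not: its promoter fell by 1.11 in young Ttran and was at 0.40 in aged Ttran, without passing the test there, with a difference between ages of -1.51 (limma adjusted p = 3.68e-05). Stard13 rose by 2.09 in young Ttran and was at -0.94 in aged Ttran, without passing the test there, and the difference of 3.03 did (limma adjusted p = 7.08e-05).

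**Figure D5:**
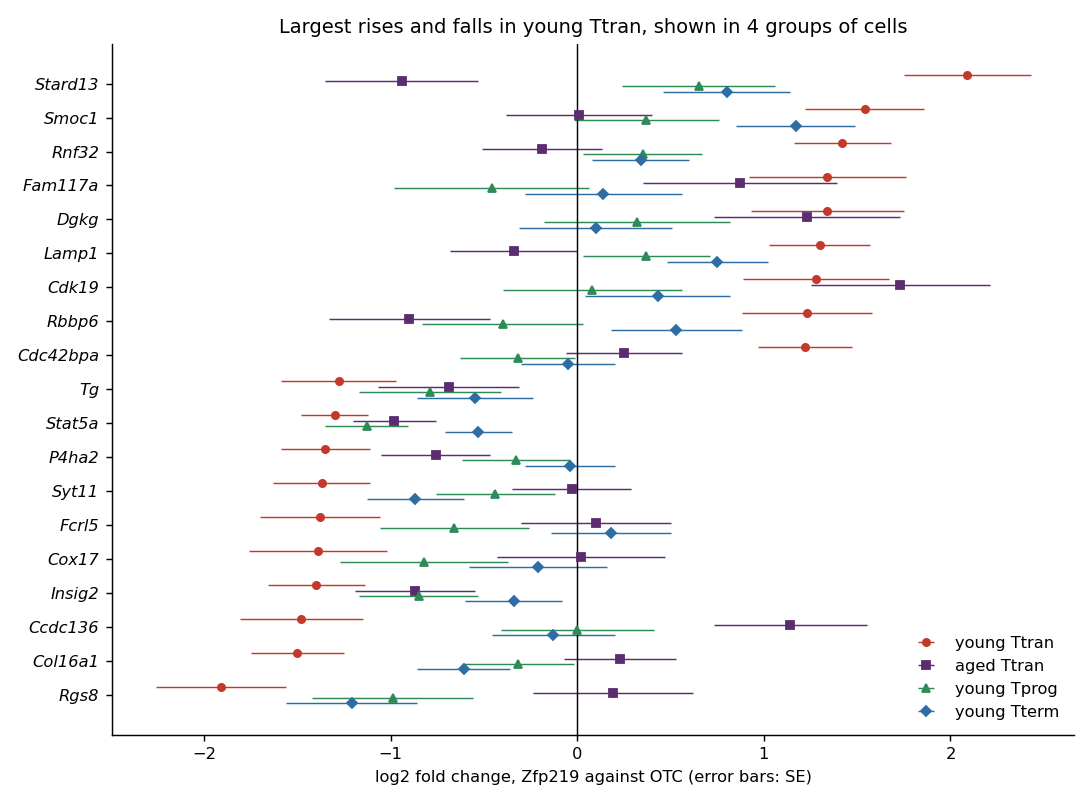
Log2 difference between Zfp219 and OTC libraries (x axis) at 9 of the 10 largest rises and the 10 largest falls of young-host Ttran (y axis, by gene) in young Ttran, aged Ttran, young Tprog and young Tterm, with standard errors of the limma fit. The young Ttran points are the extremes by choice. Aged Ttran points on the other side of 0 include those for Stard13, Rbbp6 and Rnf32 among the rises and Ccdc136, Rgs8 and Cox17 among the falls.

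A second guide, against the phosphatase gene Dusp5, was sorted the same way from young hosts. It gave 348 called peaks (0.646%) against the OTC libraries, 158 (0.293%) higher and 190 (0.353%) lower, and 142 without Dusp5 replicate 1, 168 without OTC replicate 2 or 129 without OTC replicate 3. Set directly against the Dusp5 libraries, the Zfp219 libraries differed at 4006 peaks (7.44%), 1469 (2.73%) higher and 2537 (4.71%) lower, and at 2137 without Dusp5 replicate 1. These comparisons share libraries with the main one, so only values are set side by side: the 890 higher peaks had a median log2 difference from OTC of 0.49 with Zfp219 and 0.14 with Dusp5, and the 2277 lower peaks -0.43 and -0.09. The depth of the Dusp5 libraries, 7809388, 14960712 and 20077793 reads, overlapped both other groups: 1 library lay within the range of the Zfp219 libraries and 2 within that of OTC. Of the largest changes, 6 of the 10 falls and 0 of the 10 rises were also called against Dusp5. At the Sp1 promoter the Zfp219 libraries were lower than the Dusp5 libraries too (limma adjusted p = 0.000146), and at Junb as well (limma adjusted p = 0.000193). Sp2, Sp4 and Hsp90b1 did not pass against Dusp5 (limma adjusted p = 0.118, 0.271 and 0.0738). Of the 4 Sp family promoters 1 was lower against Dusp5 and 0 higher. Of the 21 endoplasmic reticulum promoters 3 were lower and 1 higher. The promoter classes kept their order against Dusp5, with 11 higher and 101 lower in the Tprog class and 169 higher and 12 lower in the Tterm class.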

How the data were processed

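The series holds ATAC-seq of sorted CD8 T cells, 48 libraries in 21 groups, with 3 libraries in each young Ttran group. Per the submitters' processing notes, the authors used Bowtie2 2.2.9, Picard 2.8.0, SAMtools 1.3.1, MACS2 2.1.1 and DESeq2 1.28.1 on mm10; the role of each is not given in the sources used here, nor whether peaks were called on pooled samples or whether starts count from 0. The deposited table gives a normalized signal: in each library the values are whole multiples of a smallest step, taken as what 1 read is worth (100% of values within 0.01 of a read). Reads in peaks were recovered from it as counts for the depths. In 1 young Zfp219 Tprog library the step could not be read as 1 read with certainty. That library stayed in the thinning but not in edgeR. Depth sets the precision, since 1 read was worth 0.442 to 1.98 normalized reads in these libraries.

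Values were taken as log2(value + 1) and fitted with limma 3.58.1 (trend) in R 4.3.3 over 48 libraries with 1 mean per group, which leaves 27 residual degrees of freedom. P-values were adjusted by Benjamini and Hochberg over the 53868 peaks, with 0.05 as the threshold. Since 1 is added before the logarithm, a given ratio comes out smaller at low signal. This does not make losses at weak peaks cautious, since the Zfp219 libraries were shallower. In the weakest of the 5 bins by signal 262 peaks were lower and 50 higher, with a median of -0.10. After thinning 116 were lower and 53 higher (-0.05), and under quantile normalization 96 and 72 (0.05). In the 6 libraries alone 13 were lower and 1 higher. P-values measure the spread between libraries of pooled mice.

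Peaks took the name of an overlapping protein-coding gene, or else of the nearest one within 100 kb (RefSeq, GRCm38.p6), which does not show that it regulates that gene. Named were the peaks of Zfp219, the 10 largest rises and falls that were called without overlap at a mean of at least 50 normalized reads, the called peak of largest mean of each list gene with the strongest change where several were called, the genes with most called peaks, and up to 5 promoter changes a direction; some genes that this rule names are not reported here. The comparison, lists and members were chosen with earlier results of these data known, and the promoter families, motifs and sequences after these values were seen.

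Other settings tried were adding 8 before the logarithm, leaving out the 25% of peaks with least signal, median-of-ratios and quantile scaling, library weights, the compared libraries alone, each library left out, a replicate block, and edgeR 4.0.16 quasi-likelihood on the recovered reads of 47 libraries (1 column could not be turned into whole reads with certainty), which called 3200 peaks. Thinning of reads to the smallest library total and its combinations were added after seeing the data. The fits were tested on simulated data.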

Additional observations from a re-analysis of the deposited data

Results flagged for a closer look

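The effect of the Zfp219 guide in young Ttran differed, by a contrast of contrasts in limma, from its mean effect in young Tprog and Tterm at 305 peaks and from its effect in aged Ttran at 1975 peaks. Among the 20 largest changes, the difference from Tprog and Tterm passed the test at Cdc42bpa (1.40 on the log2 scale) and P4ha2 (-1.16), among others. The difference from aged Ttran passed at Stard13 (3.03), Rbbp6 (2.12), Lamp1 (1.63), Rnf32 (1.62), Col16a1 (-1.73), Rgs8 (-2.1) and Ccdc136 (-2.62), among others. These 20 were chosen for large values in young Ttran, which enter both differences, so large differences there are in part a result of the choice.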

How the results depend on the processing

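None of the 159 peaks followed changed direction under the alternatives, and 26 stayed on the same side of the threshold under all of them; 56 of the peaks kept their side in the fit of the 6 libraries alone, 86 after thinning and 146 by edgeR. The 3167 calls of Zfp219 against OTC became 892 in the libraries compared alone, 1614 with library weights, 1722 after thinning, 1668 after thinning with a pseudocount of 8, 446 after thinning with the libraries alone and 1310 by edgeR on them alone. They ran from 1863 to 3005 with 1 library left out, at 1863 without OTC replicate 3 and 1934 without OTC replicate 2; the cause was not tested. In the order libraries alone, weights, thinning and thinning with a pseudocount of 8, the 305 differences from Tprog and Tterm became 149, 148, 127 and 117, and the 1975 differences from aged Ttran became 630, 1038, 973 and 1071. The 4006 calls against Dusp5 became 822, 1428, 2102 and 2131. The 348 calls of Dusp5 against OTC became 225 with the libraries alone, 191 after thinning and 184 with thinning and a pseudocount of 8. With 1 library left out, the 305 ran from 158 to 553 (190, 158 and 168 without OTC Ttran replicates 1, 2 and 3, and 553 without Zfp219 Ttran replicate 3) and the 1975 from 905 to 2117 (905 and 970 without aged Zfp219 replicates 1 and 2). The 4006 ran from 2137 to 3728 (2137 without Dusp5 replicate 1), and the 348 from 129 to 302 (142 without Dusp5 replicate 1, 168 and 129 without OTC replicates 2 and 3). The score difference of -0.0962 was -0.0536 with a pseudocount of 8, -0.0534 without the weakest peaks, -0.0386 under quantile scaling and -0.067 after thinning, and ran from -0.107 to -0.0879 with 1 library left out. Of the 20 largest changes 7 were called after thinning with the libraries alone, and 15 to 18 with 1 library left out.

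Replicate numbers gave no sign of pairing: deviations of same-numbered Zfp219 and OTC libraries correlated at -0.0023, 0.0039 and -0.0045, and the replicate block called 3175 peaks.

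Depth limits weak peaks most: the Zfp219 libraries had 504 to 679 peaks with 0 reads and the OTC libraries 26 to 214.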

Other observations

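Some promoter families outside the lists were grouped after their values were seen. Of 60 cytosolic ribosomal protein gene promoters, 8 (13.3%) were called higher with the Zfp219 guide and 0 lower, beside 3.40% and 3.86% of all promoter peaks. The median log2 difference was 0.11, beside 0.03 over all promoter peaks. Rpl5, a protein of the large ribosomal subunit, held 307, 314 and 283 normalized reads with OTC and 534, 374 and 389 with the guide (0.50, limma adjusted p = 0.00156). Its groups did not overlap. Rpl6, of the same subunit, went from 249.9, 220.5 and 267 to 295, 369 and 404 (0.52, limma adjusted p = 0.00635). In the fit of the 6 libraries alone 0 of the 60 were called in either direction, and in aged Ttran 16 were higher and 1 lower. Of 41 histone gene promoters 7 (17.1%) were higher and 2 lower. The lower ones were H2az1 and H3f3b, and H3f3a, which encodes the same H3.3 protein as H3f3b, was among the higher ones. Of 69 mitochondrial ribosomal protein promoters 3 (4.35%) were higher and 1 lower, near the share of all promoter peaks.

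Other promoters, picked from the called ones after their values were seen and standing for no group, were as follows. Bub1b, a kinase of the spindle checkpoint, went from 263, 298 and 279 to 487, 338 and 370 (0.49, limma adjusted p = 0.00393). Rrm2, a subunit of ribonucleotide reductase, went from 846, 897 and 889 to 1050, 1069 and 1140 (0.31, limma adjusted p = 0.00366). Mybl2, a transcription factor of the cell cycle, rose by 0.31 and Ezh2, the methyltransferase of Polycomb complex PRC2, by 0.23 on the log2 scale. Lower promoters outside the lists included Pim2, a survival kinase, which went from 468, 397 and 446 to 253, 306 and 309 (-0.60, limma adjusted p = 0.000161), and Nfkbia, the inhibitor of NF-kB (-0.25, limma adjusted p = 0.00396).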
